A study of Mus musculus with 51 samples.

Results

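The genes described here make, use and recycle glutathione. They were chosen by name, and 42 were found, each with 1 of the 22206 probe sets of the array. The set holds 21 glutathione transferases of the alpha, mu, pi, theta, omega, kappa and zeta classes, 3 microsomal transferases (Mgst1, Mgst2 and Mgst3) and 8 glutathione peroxidases. It also holds 4 genes of glutathione synthesis (Gclc, Gclm, Gss and the cystine transporter gene Slc7a11), the reductase Gsr and the breakdown enzyme Ggt5. Nqo1, Hmox1, Txnrd1 and Srxn1, which share their main regulator with many glutathione genes, make up the last 4. Ggt1 belonged to the choice as well, but no probe set carried its name in the annotation used here.

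The values come from lungs of male mice aged 6 to 8 weeks. Methylene diphenyl diisocyanate (MDI) is a reactive chemical used to make polyurethane, and an airway sensitizer. Every mouse, controls included, had its back skin treated on 2 occasions with 1% MDI. On days 15, 16, 19 and 20 the mice were given through the nose, under isoflurane, either MDI that had been reacted with glutathione (called MDI below) or a control solution for which MDI and glutathione were reacted apart from each other. The control solution thus carried both substances too. Lungs were perfused, lavaged and taken 48 h after the last exposure. The mice without B cells, of the stock B6.129S2-Ighmtm1Cgn/J, are called B-cell deficient here. As background, they lack the membrane form of the immunoglobulin mu chain in every cell and gave 7 MDI and 9 control arrays. C57BL/6 mice given intranasal crofelemer, a chloride channel inhibitor, gave 3 MDI and 5 control arrays. Its dose was 4 mg/kg, 4 h ahead of every exposure. BALB/c mice gave 3 MDI and 3 control arrays, and C57BL/6 mice without crofelemer gave 13 MDI and 6 control arrays.

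Glutathione is a small thiol that traps reactive electrophiles, diisocyanates among them, and supplies electrons for the removal of peroxides. Glutathione transferases speed its coupling to electrophiles, glutathione peroxidases spend it on peroxides, and glutathione reductase returns the oxidised form to the reduced one. Synthesis is limited by glutamate cysteine ligase, whose catalytic subunit is Gclc, and by the supply of cysteine. Many of these genes are driven by the transcription factor NRF2 (gene Nfe2l2) through the antioxidant response element, and in the lung the airway epithelium, above all its club cells, is known for its content of transferases.

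Promoters are shown for Gsta2, Gsta3, Gstk1 and Gsto1. The 3 genes named first fell with crofelemer in both MDI-exposed and control mice, Gsta2 by less in MDI-exposed mice (−1.18, against −2.99 in control mice). Gsto1 rose with MDI in B-cell deficient, BALB/c and C57BL/6 mice, though in the last 2 that call did not hold under every setting, as given below. Each sequence is the 250 bases before the gene's start, 5′ to 3′ on the gene's own strand, from RefSeq (build GRCm38.p6). Capitals mark the core of the antioxidant response element, TGACNNNGC, searched on both strands. The regions are chr9:78347146-78347395 (minus strand) for Gsta2, chr1:21240335-21240584 (plus) for Gsta3, chr6:42245685-42245934 (plus) for Gstk1 and chr19:47854723-47854972 (plus) for Gsto1.
Gsta2: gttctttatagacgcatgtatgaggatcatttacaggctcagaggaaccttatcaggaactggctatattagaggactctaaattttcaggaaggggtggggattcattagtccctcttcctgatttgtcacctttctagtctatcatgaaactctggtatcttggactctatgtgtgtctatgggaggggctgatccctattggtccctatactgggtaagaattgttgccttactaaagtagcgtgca
Gsta3: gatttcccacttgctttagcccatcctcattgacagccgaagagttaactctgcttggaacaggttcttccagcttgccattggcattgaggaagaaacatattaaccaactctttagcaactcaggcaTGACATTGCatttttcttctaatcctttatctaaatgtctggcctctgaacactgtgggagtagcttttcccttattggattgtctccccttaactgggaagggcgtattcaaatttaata
Gstk1: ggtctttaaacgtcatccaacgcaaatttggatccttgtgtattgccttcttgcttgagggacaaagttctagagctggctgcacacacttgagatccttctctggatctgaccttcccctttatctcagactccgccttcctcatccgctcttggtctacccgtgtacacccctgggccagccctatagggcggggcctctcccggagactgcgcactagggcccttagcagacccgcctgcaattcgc
Gsto1: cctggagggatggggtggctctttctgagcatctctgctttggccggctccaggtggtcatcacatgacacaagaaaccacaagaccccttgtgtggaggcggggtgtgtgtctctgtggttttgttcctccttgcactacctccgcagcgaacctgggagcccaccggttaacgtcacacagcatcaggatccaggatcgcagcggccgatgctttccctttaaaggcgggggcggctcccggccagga

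The core was found once in the Gsta3 window, with its first base 121 bases before the start, and not in the other 3. Of the 36 members with a promoter in the table, 6 held it (16.7%): Gsta3, Gstm5, Gstm7, Gclm, Mgst1 and Txnrd1. Among all 27025 genes of the table, 3112 held it (11.5%). A match of these letters is a description of the window and no measure of binding.

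Values are log2 signals as deposited, changes are differences of log2 means ± the moderated standard error (SE), and a gene was counted as changed at an adjusted p under 0.05 in limma over all 22206 probe sets. Alveolar type 2 markers averaged log2 17.18 to 18.14 over 9 genes on the 49 arrays, the profile of lung. The 6 measured B cell markers summed to log2 30.1 to 33.7 in B-cell deficient mice and 43.0 to 51.8 in C57BL/6 mice without crofelemer. Clca1, a goblet cell secretory protein, rose with MDI by 8.41 in B-cell deficient, 7.86 in crofelemer-treated, 12.52 in BALB/c and 8.12 in C57BL/6 mice. Array means lay at 8.02 to 8.07 in B-cell deficient mice, 7.43 to 7.48 with crofelemer, 7.37 to 7.40 in BALB/c and 7.48 to 7.51 in C57BL/6 mice, so levels were not tested across strains. The labels number arrays as mice without saying more, so a p-value measures the spread between these arrays. Where groups are said to lie apart or not to overlap, this describes the arrays of that gene. How often groups lay apart over all probe sets was not counted.

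In C57BL/6 mice MDI lowered mainly the transferases. Of the 42 genes, 13 fell and 2 rose, 35.7% in all, beside 14.5% of all probe sets (9.23% lower and 5.30% higher). All but 3 of the 13 that fell were transferases: 2 of 3 alpha, 5 of 7 mu, 2 of 3 pi and 1 of 4 theta class genes. The 2 that rose were Gclc and the omega class gene Gsto1. The median change was −0.47 over the 21 transferases of these and the omega, kappa and zeta classes. It was −0.08 over the other 21 genes, which include the 3 microsomal transferases, and 0.01 over all probe sets. In whole lung, fewer cells of a type and less RNA per cell cannot be told apart.

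**Figure D1:**
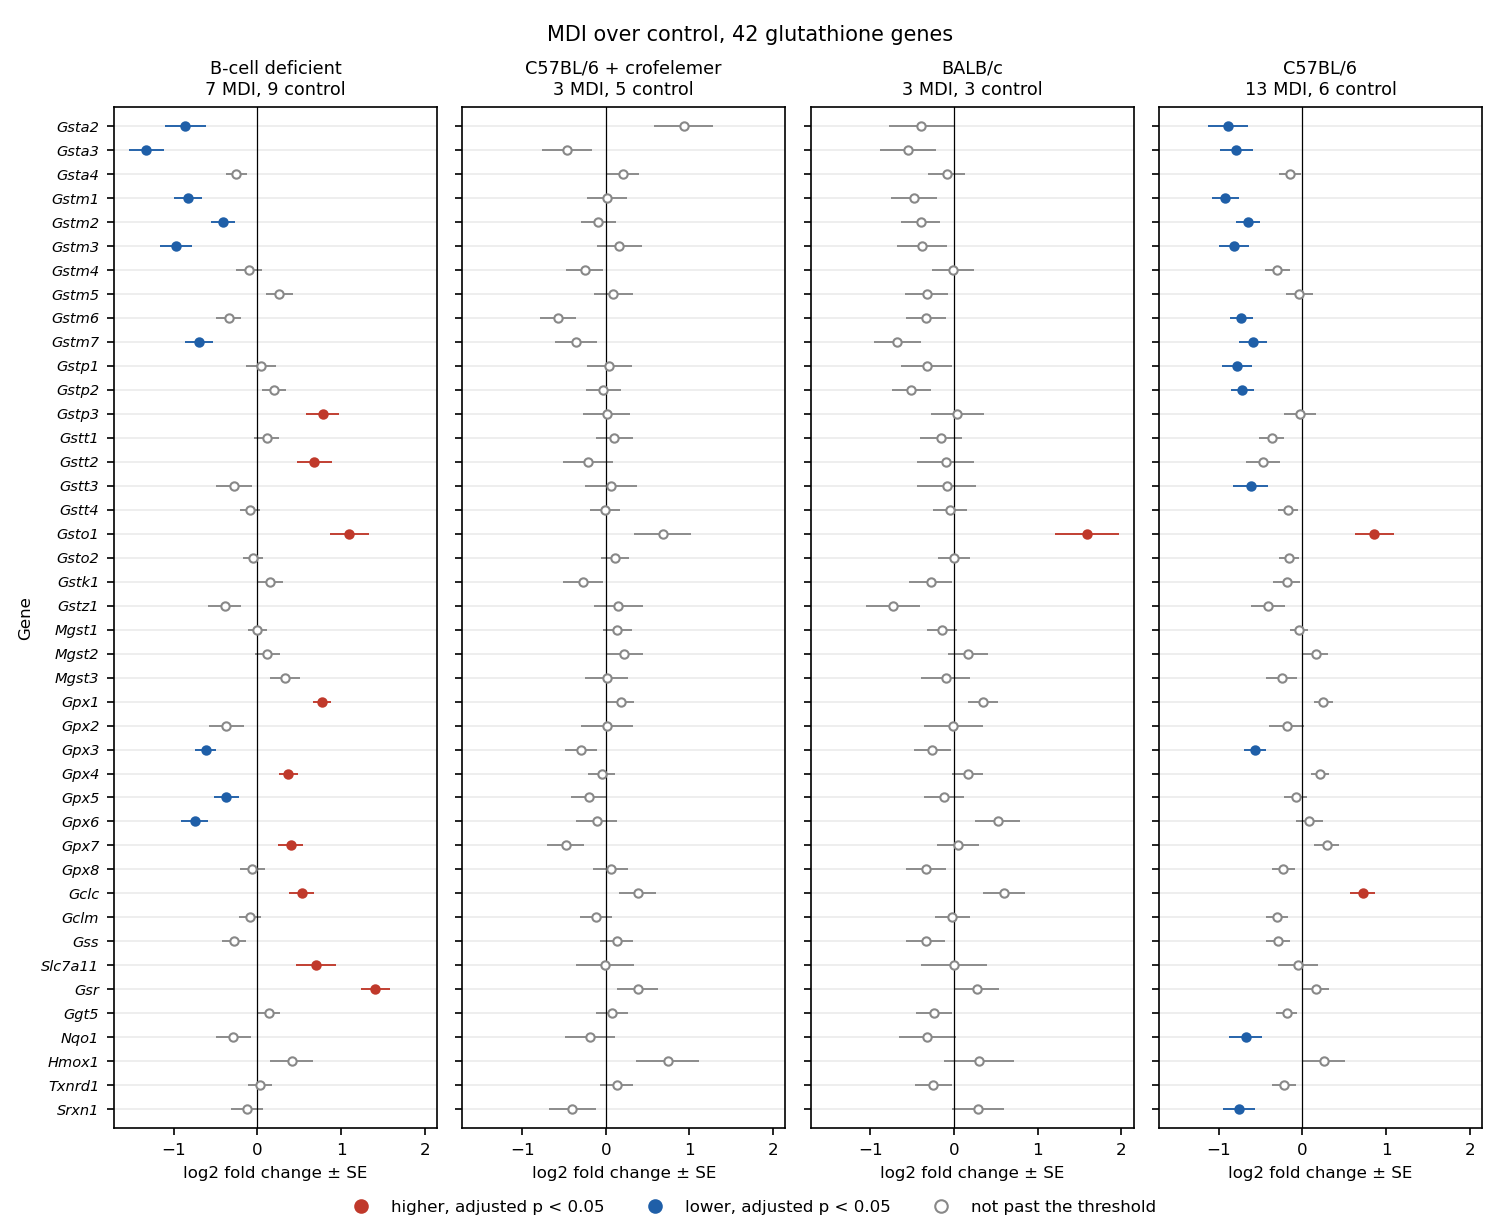
Log2 fold change of MDI over control (x axis, ± SE) for the 42 genes (y axis) in B-cell deficient, crofelemer-treated C57BL/6, BALB/c and C57BL/6 mice, with genes that rose (red) or fell (blue) at adjusted p under 0.05 filled. In C57BL/6 mice 13 genes lie left of 0 in blue and 2 right of it in red; with crofelemer no point is filled.

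Mu class enzymes conjugate a wide range of electrophiles, and Gstm1 showed the largest fall of the 42. Its lowest, median and highest log2 signals were 14.56, 15.74 and 16.12 on 13 MDI arrays, against 16.07, 16.45 and 16.76 on 6 control arrays, and 12 of 13 MDI arrays lay below every control. It fell by 0.92 ± 0.16 (adjusted p = 7.65e-05). Gstm3 read 7.06, 8.05 and 8.83 on MDI arrays and 8.29, 8.89 and 9.13 on control arrays, and fell by 0.82 ± 0.18 (adjusted p = 0.00123). Gstm2 read 12.13, 12.79 and 13.25 with MDI and 13.03, 13.41 and 13.72 in controls, and fell by 0.65 ± 0.14 (adjusted p = 0.000959). For Gstm3 and Gstm2 the groups overlapped in part, with 9 and 8 of 13 MDI arrays below all controls. Gstm6 fell by 0.73 ± 0.14 (adjusted p = 0.000322). Gstm7 read 5.96, 7.15 and 7.62 with MDI and 7.50, 7.58 and 8.02 in controls, and its fall of 0.59 ± 0.17 (adjusted p = 0.0122) did not pass without control replicate 4 (−0.52, adjusted p = 0.0505). Gstm4 (−0.30) and Gstm5 (−0.04) did not pass. Mu class genes are close in sequence, and cross-hybridisation between their probe sets was not tested.

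The alpha class also reduces organic hydroperoxides, and Gsta3 is known in mouse for detoxifying aflatoxin. It read 12.05, 13.16 and 13.57 on MDI arrays and 13.11, 13.82 and 13.98 on control arrays. Gsta3 fell by 0.79 ± 0.20 (adjusted p = 0.00517), with 6 of 13 MDI arrays below all controls. Gsta2 read 5.82, 6.99 and 7.82 with MDI and 7.03, 8.04 and 9.08 in controls, a fall of 0.89 ± 0.24 (adjusted p = 0.00732) that did not pass without control replicate 5 (−0.69, adjusted p = 0.0538). Gsta4, which acts on the lipid peroxidation product hydroxynonenal, did not pass (−0.15). Of the closely related pi class genes, Gstp1 read 10.03, 11.04 and 11.64 with MDI and 11.28, 11.73 and 12.13 in controls. Gstp2 read 10.20, 11.02 and 11.27 with MDI and 11.22, 11.64 and 11.91 in controls. They fell by 0.78 ± 0.18 (adjusted p = 0.00197) and 0.72 ± 0.14 (adjusted p = 0.000222), with 10 and 11 of 13 MDI arrays below every control. Gstt3 fell by 0.62 ± 0.21 (adjusted p = 0.04), a call that ended without any 1 of control replicates 1 to 5 or MDI replicates 1, 5 and 8 (adjusted p from 0.0525 to 0.116).

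Outside the transferases, Gpx3, the secreted peroxidase of plasma, had groups that were apart in C57BL/6 mice. It read 16.57, 17.77 and 18.07 on MDI arrays and 18.15, 18.27 and 18.50 on control arrays, and fell by 0.57 ± 0.13 (adjusted p = 0.00177). The NRF2 targets Srxn1, which repairs oxidised peroxiredoxins, and Nqo1, a quinone reductase, fell by 0.76 ± 0.19 (adjusted p = 0.00341) and 0.68 ± 0.20 (adjusted p = 0.0197). The Nqo1 call ended without control replicate 4 (−0.55, adjusted p = 0.092) or 5 (−0.47, adjusted p = 0.128). Gclc read 13.59, 14.03 and 14.99 with MDI and 13.18, 13.39 and 13.97 in controls, with 8 of 13 MDI arrays above all controls, and rose by 0.72 ± 0.15 (adjusted p = 0.00059). Its partner subunit Gclm (−0.30, adjusted p = 0.0994) and the synthase Gss (−0.29, adjusted p = 0.17) did not pass. Gsto1, whose omega class reduces mixed disulphides and dehydroascorbate more than it conjugates, read 12.27, 13.30 and 13.97 with MDI and 11.69, 12.29 and 13.35 in controls. It rose by 0.86 ± 0.23 (adjusted p = 0.00683), with 6 of 13 MDI arrays above every control. The other 27 genes lay between −0.47 (Gstt2) and 0.29 (Gpx7).

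The C57BL/6 arrays came in 2 runs of consecutive records, called lots here, which the labels do not name as batches. Within lot 1, with 12 MDI and 4 control arrays, 7 genes passed, 1 higher and 6 lower, beside 6.9% of all probe sets. The calls for Gsto1 (0.73, adjusted p = 0.124), Gsta2, Gsta3, Gstm7, Gstp1, Gstt3, Nqo1 and Gpx3 ended there (adjusted p from 0.0547 to 0.145). Gclc, Gstm1, Gstm2, Gstm3 and Gstm6 passed under every alternative run.

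In B-cell deficient mice MDI moved 18 of the 42 genes, 9 higher and 9 lower, or 42.9% beside 36.9% of all probe sets (16.2% higher and 20.7% lower). The alpha and mu classes gave 6 falls and no rise among 10 genes. Peroxidases went both ways, with 3 higher and 3 lower among 8. Without the 4 control arrays of narrow spread described below, the calls for Gpx4, Gpx5, Gpx6 and Gpx7 ended. Gsr, the reductase, showed the largest rise of all. The median over the 42 genes was −0.05, beside −0.06 over all probe sets.

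Gsr read 13.18, 13.61 and 13.82 (lowest, median, highest) on 7 MDI arrays and 11.60, 12.18 and 12.65 on 9 control arrays. The groups did not overlap, and Gsr rose by 1.41 ± 0.17 (adjusted p = 5.69e-09). Gsto1 read 13.22, 13.50 and 14.06 with MDI and 11.50, 12.60 and 13.01 in controls, again apart, a rise of 1.10 ± 0.23 (adjusted p = 0.000219). The cytosolic peroxidase Gpx1 rose by 0.77 ± 0.11 (adjusted p = 3.45e-07). Gclc read 14.16, 14.40 and 14.94 with MDI and 13.65, 13.97 and 14.26 in controls, with 5 of 7 MDI arrays above every control, and rose by 0.53 ± 0.15 (adjusted p = 0.00558).

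Gstp3, the third pi class gene, read 7.22, 7.60 and 8.18 with MDI and 6.36, 7.02 and 7.19 in controls, with no overlap, and rose by 0.78 ± 0.20 (adjusted p = 0.00165). The theta class gene Gstt2 read 9.84, 9.99 and 10.54 with MDI and 8.67, 9.61 and 10.05 in controls, and rose by 0.68 ± 0.21 (adjusted p = 0.00871), with 3 of 7 MDI arrays above all controls. Slc7a11, which imports cystine, rose by 0.70 ± 0.24 (adjusted p = 0.0197), a call that ended without MDI replicate 6 (0.58, adjusted p = 0.0668). Gpx4, which reduces lipid hydroperoxides in membranes, rose by 0.37 ± 0.11 (adjusted p = 0.00676). Gpx7, a peroxidase of the endoplasmic reticulum, rose by 0.40 ± 0.15 (adjusted p = 0.0383), and this ended without any 1 of control replicates 2, 3, 5 and 6 or MDI replicates 3, 6 and 7 (adjusted p from 0.0541 to 0.111).

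Gsta3 fell most in these mice. It read 12.85, 13.58 and 14.10 on MDI arrays and 14.65, 14.84 and 15.04 on control arrays, with no overlap, and fell by 1.33 ± 0.21 (adjusted p = 2.17e-06). Gsta2 read 7.14, 7.93 and 8.44 with MDI and 8.24, 8.68 and 9.60 in controls, and fell by 0.86 ± 0.24 (adjusted p = 0.00462), with 6 of 7 MDI arrays below every control. Gstm1 read 15.39, 15.54 and 16.08 with MDI and 16.20, 16.46 and 16.70 in controls, groups that were apart, and fell by 0.83 ± 0.17 (adjusted p = 0.00012). Gstm3 read 7.86, 8.13 and 8.67 with MDI and 8.54, 9.20 and 9.72 in controls, a fall of 0.97 ± 0.19 (adjusted p = 6.34e-05). Gstm7 read 7.90, 8.15 and 8.31 with MDI and 8.30, 8.84 and 9.21 in controls, a fall of 0.70 ± 0.17 (adjusted p = 0.00125). For Gstm3 and Gstm7 alike, 6 of 7 MDI arrays lay below all controls. Gstm2 read 12.60, 12.87 and 13.16 with MDI and 12.92, 13.32 and 13.64 in controls, and its fall of 0.41 ± 0.14 (adjusted p = 0.0224) did not pass without MDI replicate 6 (−0.36, adjusted p = 0.0598).

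Of the peroxidases that fell, Gpx3 read 16.85, 17.45 and 17.73 with MDI and 17.81, 18.05 and 18.33 in controls, with no overlap. It fell by 0.62 ± 0.13 (adjusted p = 0.000303). Gpx6, known from olfactory tissue, gave a dim signal of 5.40, 6.01 and 6.26 with MDI and 6.03, 6.51 and 7.20 in controls, and fell by 0.75 ± 0.16 (adjusted p = 0.000314). Gpx5, the epididymal peroxidase, gave a dim signal as well (means of 5.56 with MDI and 5.93 in controls). It fell by 0.37 ± 0.15 (adjusted p = 0.0417), a call that ended without any 1 of control replicates 2, 6 and 9 or MDI replicates 2, 4 and 6 (adjusted p from 0.0571 to 0.119). The other 24 genes lay between −0.39 (Gstz1) and 0.41 (Hmox1). Of these, Gstm6 fell past the threshold after quantile normalization (−0.49, adjusted p = 0.00713). It also did with lot as a term (−0.53, adjusted p = 0.0449) and within lot 2 (−0.53, adjusted p = 0.048). Gss (−0.45), Gstz1 (−0.56) and Gpx2 (−0.55) passed after quantile normalization, and Hmox1 within lot 2 (0.8, adjusted p = 0.015).

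Of the 9 B-cell deficient control arrays, replicates 1, 2, 5 and 6 had a narrower spread of signals over all probe sets (SD 2.85 to 2.96) than the other 5 (3.03 to 3.06). Without these 4 arrays, 13 genes passed, 3 higher and 10 lower, beside 17.0% of all probe sets. The calls for Gclc (0.45, adjusted p = 0.0803), Gstp3 (0.57, adjusted p = 0.0757), Gpx6 (−0.43, adjusted p = 0.081), Gstt2 (0.20, adjusted p = 0.566), Gpx4, Gpx5, Gpx7 and Slc7a11 ended. All 9 controls lay in lot 2, with 3 of the 7 MDI arrays. Within that lot 15 genes passed, 7 higher and 8 lower, beside 19.6% of all probe sets. With lot as a term in the fit of all groups 13 passed, 4 higher and 9 lower, beside 20.3% of all probe sets, and the calls for Gclc (0.54, adjusted p = 0.0546), Slc7a11 (0.87, adjusted p = 0.0525), Gstt2 (0.56, adjusted p = 0.15), Gpx4, Gpx5 and Gpx7 ended. Gsr, Gsto1, Gpx1, Gpx3, Gsta2, Gsta3, Gstm1, Gstm3 and Gstm7 passed under every alternative run.

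The B-cell deficient and C57BL/6 comparisons share no array. The 7 genes Gpx3, Gsta2, Gsta3, Gstm1, Gstm2, Gstm3 and Gstm7 fell in both, which is 77.8% of the 9 that fell in B-cell deficient mice and 53.8% of the 13 in C57BL/6 mice. Over all probe sets, 647 fell in both, 14.1% of those that fell in B-cell deficient and 31.6% of those in C57BL/6 mice. Gclc and Gsto1 rose in both, 22.2% of the 9 that rose in B-cell deficient mice and 100% of the 2 in C57BL/6 mice, beside 20.3% and 62.2% over all probe sets. No gene changed in opposite directions.

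**Figure D2:**
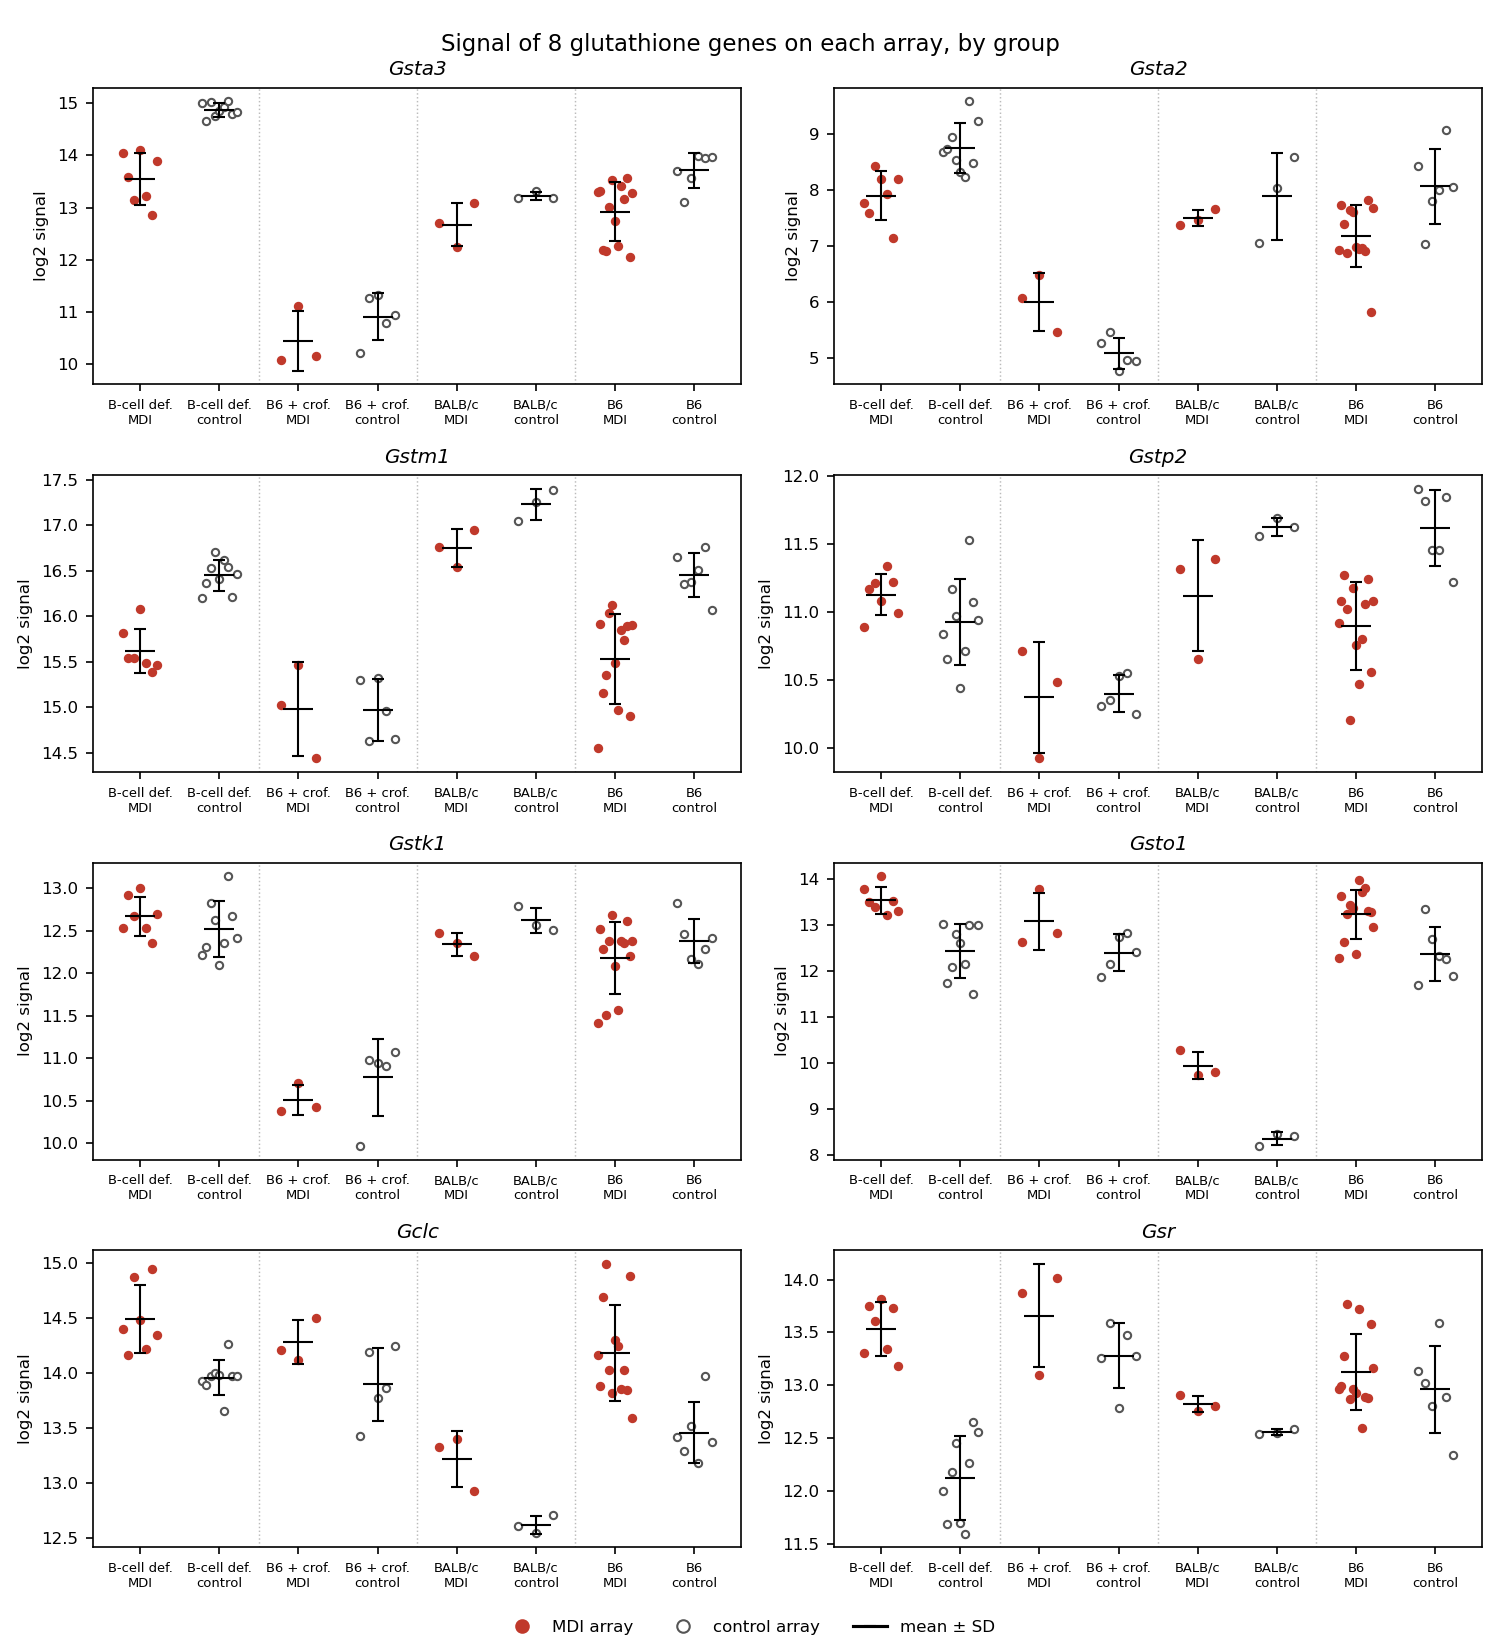
Log2 signal (y axis) of 8 genes on every array, by group (x axis; B-cell def., B-cell deficient; B6, C57BL/6; crof., crofelemer), with MDI arrays as red points, control arrays as open circles, and bars for the mean ± SD. Gsr is apart between MDI and control in B-cell deficient mice, and Gsta3 and Gstk1 are low on every crofelemer array, while levels across strains may carry differences in processing.

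The change with MDI was then compared between the genotypes (B-cell deficient minus C57BL/6). It differed for 7 of the 42 genes, or 16.7% beside 20.3% of all probe sets (9.27% with a higher change and 11.0% with a lower one). Gsr rose by 1.25 ± 0.23 more in B-cell deficient mice (adjusted p = 0.000378), with a change of 1.41 there and 0.16 in C57BL/6 mice, where MDI arrays read 12.60 to 13.77 and control arrays 12.34 to 13.59. Gstp2 differed by 0.93 ± 0.20 (adjusted p = 0.0013), with a change of 0.20 in B-cell deficient mice, where MDI arrays read 10.89 to 11.34 and controls 10.44 to 11.53, against −0.72 in C57BL/6 mice. Gstp1 differed by 0.82 ± 0.26 (adjusted p = 0.021), with 0.04 in B-cell deficient mice, where MDI arrays read 11.18 to 11.53 and controls 10.85 to 12.13, against −0.78 in C57BL/6 mice. Gstt2 (1.15 ± 0.29, adjusted p = 0.00485), Gstp3 (0.80 ± 0.27, adjusted p = 0.0317) and Gpx1 (0.52 ± 0.15, adjusted p = 0.0137) were the other genes with a higher change, and Gpx6 had a lower one (−0.83 ± 0.23, adjusted p = 0.00856). Of these 7, only Gsr and Gstp2 passed without the 4 narrow controls, where 3.24% of all probe sets passed. Gstp3 also ended without any 1 of 5 arrays, which were C57BL/6 control replicates 2 and 4, B-cell deficient MDI replicates 3 and 5 and B-cell deficient control replicate 1 (adjusted p from 0.0526 to 0.0902). In the same comparison the change was higher for 6 of 9 interstitial macrophage and monocyte markers (median 0.75) and 4 of 7 neutrophil markers (median 1.60), and their part in these differences was not tested. The falls of the alpha and mu classes did not differ between the genotypes for any of 10 genes at this threshold.

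In BALB/c mice, with 3 arrays a group, 1 of the 42 genes passed, or 2.38% beside 0.302% of all probe sets (0.261% higher and 0.0405% lower). Gsto1 read 10.28, 9.74 and 9.80 on MDI arrays and 8.19, 8.45 and 8.40 on control arrays, with no overlap, and rose by 1.59 ± 0.38 (adjusted p = 0.0389). This call ended without any 1 of the 6 arrays (1.42 to 1.69, adjusted p from 0.0884 to 0.28). Its level lay below that of the other strains (means of 12.37 to 13.53), a difference that may carry the processing of the sets and was not tested. Gstm1 read 16.76, 16.54 and 16.95 with MDI and 17.05, 17.25 and 17.39 in controls, with no overlap and a change of −0.48 ± 0.27 (adjusted p = 0.991). Gclc read 13.33, 13.40 and 12.93 with MDI and 12.61, 12.55 and 12.71 in controls, with a change of 0.60 ± 0.25 (adjusted p = 0.651). The other 41 genes lay between −0.73 (Gstz1) and 0.60 (Gclc). The median change of the 42 genes was −0.11, beside −0.01 over all probe sets, and 5 passed an unadjusted p of 0.05.
The change in BALB/c mice minus that in C57BL/6 mice passed for 0 of 42 genes (0.027% of all probe sets, 0.0135% in each direction) in limma, with 1 at an unadjusted p under 0.05. For Gstm1 the difference was 0.44, with a 95% interval of −0.19 to 1.08, and for Gclc −0.12, with −0.70 to 0.46. All 42 differences lay between −0.32 (Gstz1) and 1.05 (Srxn1). Simulated 2-fold differences were found at 53% in this test, so it could miss differences of that size.

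With crofelemer, MDI changed 0 of 42 genes against its own control in limma, beside 0.054% of all probe sets (0.036% higher and 0.018% lower), and 4 passed an unadjusted p of 0.05. Gstm1 read 15.03, 15.47 and 14.44 on MDI arrays and 15.30, 14.63, 15.32, 14.96 and 14.65 on control arrays, and the groups overlapped. Gsto1 read 12.63, 13.78 and 12.82 with MDI and 11.86, 12.14, 12.74, 12.83 and 12.42 in controls, with a change of 0.68 ± 0.34 (adjusted p = 0.607). Gclc read 14.21, 14.12 and 14.50 with MDI and 13.43, 14.19, 13.77, 13.86 and 14.24 in controls, with a change of 0.38 ± 0.22 (adjusted p = 0.699). All 42 changes lay between −0.57 (Gstm6) and 0.93 (Gsta2).
The MDI change with crofelemer minus that without it passed for 1 gene, or 2.38% beside 0.423% of all probe sets. For Gsta2 this difference was 1.82 ± 0.42 (adjusted p = 0.033), with a change of 0.93 with crofelemer against −0.89 without. The crofelemer controls read 4.76 to 5.46, a dim signal that was not shown to lie above background, so the size of this difference is uncertain. It ended without any 1 of 6 arrays, which were MDI replicates 1 and 2 and control replicates 3 and 4 with crofelemer and control replicates 1 and 5 without (1.58 to 1.78, adjusted p from 0.0559 to 0.193). For Gstm3 the difference of 0.98 ± 0.32 (adjusted p = 0.183) did not pass.

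In control mice the transferases read lower with crofelemer than without it. Of the 42 genes, 20 fell and 5 rose, 59.5% in all, beside 39.0% of all probe sets (21.4% lower and 17.6% higher). Of the 21 transferases of the alpha, mu, pi, theta, omega, kappa and zeta classes 15 fell and none rose, with a median of −1.0. The median was −0.10 over the other 21 genes and 0.03 over all probe sets. Those other genes include the 3 microsomal transferases, of which Mgst1 and Mgst2 fell and Mgst3 rose. Array means were slightly lower with crofelemer, and whether processing differed is not stated. With arrays centred on their medians, the median over all probe sets was 0.19 here and 0.14 in MDI-exposed mice, and 27 of the 42 genes changed in control mice, 7 higher and 20 lower, beside 47.8% of all probe sets.

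**Figure D3:**
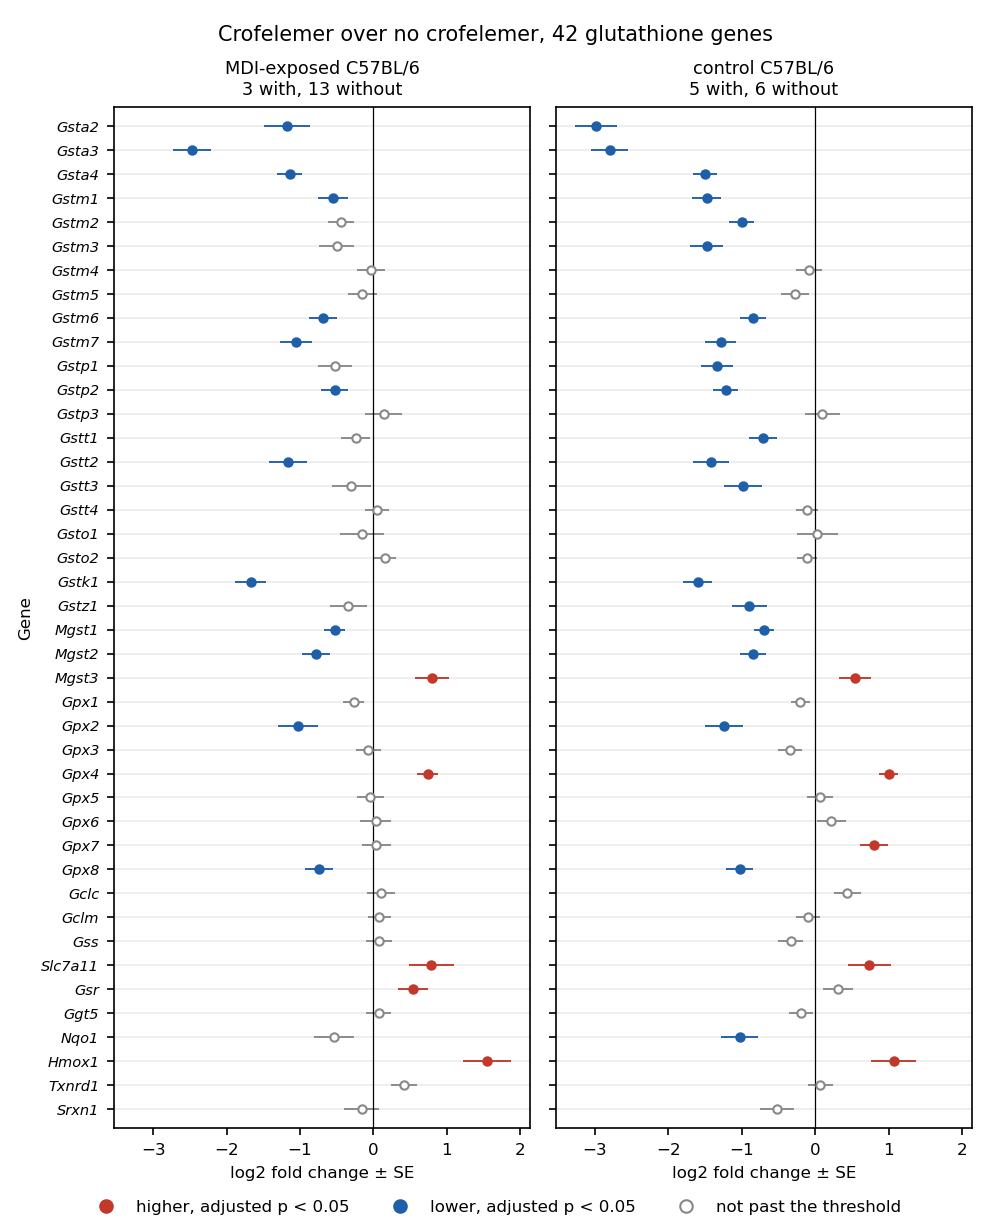
Log2 fold change of crofelemer over no crofelemer (x axis, ± SE) for the 42 genes (y axis) in MDI-exposed and in control C57BL/6 mice, with genes that fell (blue) or rose (red) at adjusted p under 0.05 filled. Gsta3 and Gstk1 lie far left in both panels, Gsta2 lies farthest left in control mice, and Hmox1 lies farthest right in both.

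Gsta2 read 5.26, 5.46, 4.76, 4.95 and 4.94 on the 5 crofelemer control arrays, against 7.03 to 9.08 (median 8.04) on the 6 control arrays without it. The fitted fall was 2.99 ± 0.29 (adjusted p = 4.45e-12). The crofelemer signals are dim, under a log2 of 6, and were not shown to lie above background, so the size of this fall is uncertain. Gsta3 read 10.22, 11.28, 11.33, 10.79 and 10.94 with crofelemer and 13.11 to 13.98 (median 13.82) without, and fell by 2.80 ± 0.25 (adjusted p = 2.67e-13). Both genes were low on every crofelemer array, with a wide gap to the other group. Gsta4 read 10.08, 10.37, 10.35, 10.32 and 10.40 with crofelemer and 11.41 to 12.23 (median 11.77) without, a fall of 1.50 ± 0.16 (adjusted p = 6.35e-11). Gstk1, the kappa class enzyme of mitochondria and peroxisomes, read 9.97, 10.98, 10.95, 10.91 and 11.07 with crofelemer and 12.11 to 12.82 (median 12.34) without. Its fall was 1.60 ± 0.20 (adjusted p = 2.59e-09), and again no array of the 2 groups overlapped.

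The mu and pi classes followed with smaller falls. Gstm1 read 15.30, 14.63, 15.32, 14.96 and 14.65 with crofelemer and 16.07 to 16.76 (median 16.45) without, and fell by 1.48 ± 0.20 (adjusted p = 3.21e-08). Gstm3 read 7.54, 7.01, 7.64, 7.31 and 7.28 with crofelemer and 8.29 to 9.13 (median 8.89) without, a fall of 1.48 ± 0.22 (adjusted p = 3.6e-07). Falls of Gstm7 (1.29), Gstm2 (1.00) and Gstm6 (0.85) completed the 5 of 7 mu genes. Gstp1 read 9.84, 10.38, 10.88, 10.65 and 10.18 with crofelemer and 11.28 to 12.13 (median 11.73) without, a fall of 1.34 ± 0.22 (adjusted p = 2.23e-06). Gstp2 fell by 1.22 ± 0.17 (adjusted p = 6.88e-08), while Gstp3 did not pass (0.10). Among theta genes, Gstt2 read 8.82, 8.30, 8.87, 9.00 and 8.08 with crofelemer and 9.65 to 10.62 (median 9.88) without, a fall of 1.42 ± 0.25 (adjusted p = 7.64e-06). In each of Gstm1, Gstm3, Gstp1 and Gstt2 every crofelemer array lay below every other array, a separation not counted over all probe sets. The other falls were those of Gstt3, Gstt1, the tyrosine breakdown enzyme Gstz1, Mgst1, Mgst2, Gpx2, Gpx8 and Nqo1 (0.70 to 1.24).

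Hmox1, which breaks down haem, rose most. It read 11.76, 11.87, 11.22, 12.56 and 11.66 on the crofelemer arrays and 10.08 to 11.53 (median 10.72) without, with 4 of 5 crofelemer arrays above every other array, and rose by 1.07 ± 0.31 (adjusted p = 0.00461). Gpx4 rose by 1.00 ± 0.13 (adjusted p = 1.43e-08), Gpx7 by 0.80 ± 0.19 (adjusted p = 0.000453), Slc7a11 by 0.74 ± 0.29 (adjusted p = 0.0384) and Mgst3 by 0.54 ± 0.22 (adjusted p = 0.0418). The other 17 genes lay between −0.52 (Srxn1) and 0.44 (Gclc). Gclc passed after quantile normalization (0.57, adjusted p = 0.0107), centring (0.59, adjusted p = 0.00602) and in further alternatives. Srxn1 passed with the replicate block (−0.63, adjusted p = 0.0213), and Gsr after centring (0.47, adjusted p = 0.0411). Within lot 1 (4 arrays in each group) 22 genes passed, beside 28.6% of all probe sets, and the calls for Gstt1, Mgst3 and Slc7a11 ended. Slc7a11 also ended without any 1 of control replicates 3, 4 and 6 or crofelemer replicates 1, 2, 4 and 5 (adjusted p from 0.0505 to 0.144), and Mgst3 without any 1 of control replicates 1, 3, 4 and 6 or crofelemer replicates 2 and 4 (adjusted p from 0.0562 to 0.154).

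In MDI-exposed mice 18 of the 42 genes differed with crofelemer, 5 higher and 13 lower, or 42.9% beside 32.6% of all probe sets (15.0% higher and 17.5% lower). Same-numbered arrays of these 2 groups correlated weakly in their deviations (0.105 to 0.167), and the labels do not name them as pairs. With the replicate number as a block over 3 pairs (2 residual degrees of freedom) 8 genes passed, 1 higher and 7 lower, beside 9.67% of all probe sets. The block fit also uses fewer arrays. The calls for Gstm7 (−0.73, adjusted p = 0.241) and Gpx4 (0.61, adjusted p = 0.128) ended with the block. So did those for Gstm1, Gstm6, Gstp2, Gsr, Slc7a11, Gpx8, Mgst1, Mgst2 and Mgst3 (adjusted p from 0.0568 to 0.672). Gstp1, not called in the main fit, passed with the block (−1.05, adjusted p = 0.0252). It also passed with array weights (−0.58, adjusted p = 0.0476) and without MDI replicate 5 (−0.59, adjusted p = 0.034) or 8 (−0.58, adjusted p = 0.0417). This comparison shares its MDI arrays, and the previous one its control arrays, with the test of MDI in C57BL/6 mice, so the values stand side by side and are no independent support for each other. Gsta3 read 10.08, 11.11 and 10.16 with crofelemer and 12.05 to 13.57 (median 13.16) without, and fell by 2.47 ± 0.26 (adjusted p = 8.87e-11). Gstk1 read 10.38, 10.71 and 10.43 with crofelemer and 11.41 to 12.68 (median 12.35) without, a fall of 1.67 ± 0.21 (adjusted p = 4.55e-09). Gsta4 read 10.16, 10.75 and 10.62 with crofelemer and 11.06 to 12.35 (median 11.69) without, a fall of 1.14 ± 0.17 (adjusted p = 3.51e-07). In all 3 genes the crofelemer arrays lay below every other array, which was not counted over all probe sets.

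Gsta2 read 6.07, 6.48 and 5.45 with crofelemer in these mice and 5.82 to 7.82 (median 6.99) without, and fell by 1.18 ± 0.31 (adjusted p = 0.00219), which ended without crofelemer replicate 3 (−0.90, adjusted p = 0.0572). Gstt2 read 8.05, 8.72 and 8.44 with crofelemer and 8.55 to 10.28 (median 9.70) without, a fall of 1.16 ± 0.26 (adjusted p = 0.000469). Without the block Gstm7 fell by 1.06 ± 0.22 (adjusted p = 0.000113), although 1 of its 3 crofelemer arrays lay below all others. Hmox1 read 12.70, 11.65 and 13.30 with crofelemer and 10.29 to 12.86 (median 10.97) without, a rise of 1.55 ± 0.33 (adjusted p = 0.000177) with overlapping groups. Gpx4 rose by 0.74 ± 0.14 without the block (adjusted p = 2.64e-05). Falls of Gstm1 and Gstp2 and rises of Gsr and Slc7a11 passed at adjusted p from 0.0207 to 0.0463, and each ended without at least 1 array. Gstp2 ended without crofelemer replicate 2 (−0.30, adjusted p = 0.296). Gsr, Gstm1 and Slc7a11 ended without crofelemer replicate 1 or 3 and without 8, 7 and 8 single MDI arrays. Gpx2 (−1.03), Mgst2 (−0.78), Gpx8 (−0.74), Gstm6 (−0.69) and Mgst1 (−0.53) passed as well without the block, as did Mgst3 (0.80), and the other 24 genes lay between −0.54 (Nqo1) and 0.42 (Txnrd1). Gpx2, Mgst1 and Mgst3 ended without crofelemer replicate 1, and Gstm6 and Mgst3 without replicate 3. Not called in the main fit, Txnrd1 passed after quantile normalization (0.58, adjusted p = 0.00299) and centring (0.52, adjusted p = 0.0136). Gstm2 (−0.50, adjusted p = 0.0294) and Gstm3 (−0.60, adjusted p = 0.0432) passed with array weights.

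Other genes of the pathway, 99 measured in 8 lists that hold none of the 42, were counted in the same fit. With MDI 23 rose and 20 fell in B-cell deficient mice, beside 16.2% and 20.7% of all probe sets. None changed with crofelemer or in BALB/c mice (0 of 99 each in limma), beside 0.054% and 0.302% of all probe sets. In C57BL/6 mice 6 rose and 23 fell, beside 5.3% and 9.23% of all probe sets. Of 10 NRF2 regulators 3 fell in B-cell deficient and 4 in C57BL/6 mice. Nfe2l2 itself changed by 0.09 ± 0.12 in B-cell deficient mice (adjusted p = 0.572) and fell by 0.45 ± 0.12 in C57BL/6 mice (adjusted p = 0.00699), a difference of 0.54 ± 0.17 (adjusted p = 0.0203). Keap1, its inhibitor, did not pass in either (0.29 in B-cell deficient and −0.35 in C57BL/6 mice, adjusted p = 0.102 and 0.0868), and the difference was 0.64 ± 0.20 (adjusted p = 0.0197). The alternative fits were not read for genes outside the 42. Without the 4 narrow controls, 3.24% of all probe sets differed between the genotypes, beside 20.3% with them. Of 21 other NRF2 targets 6 rose and 5 fell in B-cell deficient mice, against 1 and 8 in C57BL/6 mice. The aldehyde dehydrogenase Aldh3a1 fell by 1.16 in each genotype, and Me1, which makes NADPH, rose by 0.99 in B-cell deficient and 1.01 in C57BL/6 mice.

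Among 8 exporters of glutathione conjugates, Abcc3 fell by 0.92 in B-cell deficient and by 1.14 in C57BL/6 mice, and Abcc2 rose by 0.55 and 0.43. Abcc1, which exports leukotriene C4 and glutathione conjugates, rose by 0.70 in B-cell deficient mice (adjusted p = 0.000153). This change was 0.93 higher than in C57BL/6 mice (adjusted p = 0.0014), again not checked under the alternative fits. Of 12 other relatives of the transferases, the prostaglandin D synthase Hpgds rose by 0.56 in B-cell deficient and 0.74 in C57BL/6 mice. Of 9 genes of cysteine supply 1 rose and 2 fell in B-cell deficient mice, against 0 and 4 in C57BL/6 mice, Slc3a2 (the partner of Slc7a11, −0.63) among them. Catalase (Cat) fell by 0.94 in B-cell deficient and 0.82 in C57BL/6 mice, and the peroxiredoxin Prdx4 rose by 1.11 and 0.88. With crofelemer, 13 of the 99 genes rose and 32 fell in control mice, beside 17.6% and 21.4% of all probe sets. Among those that fell were Aldh1a1 (−1.97), Dpep1 (−1.95) and the cysteine dioxygenase Cdo1 (−1.40). In MDI-exposed mice 17 rose and 20 fell, beside 15% and 17.5% of all probe sets.

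**Figure D4:**
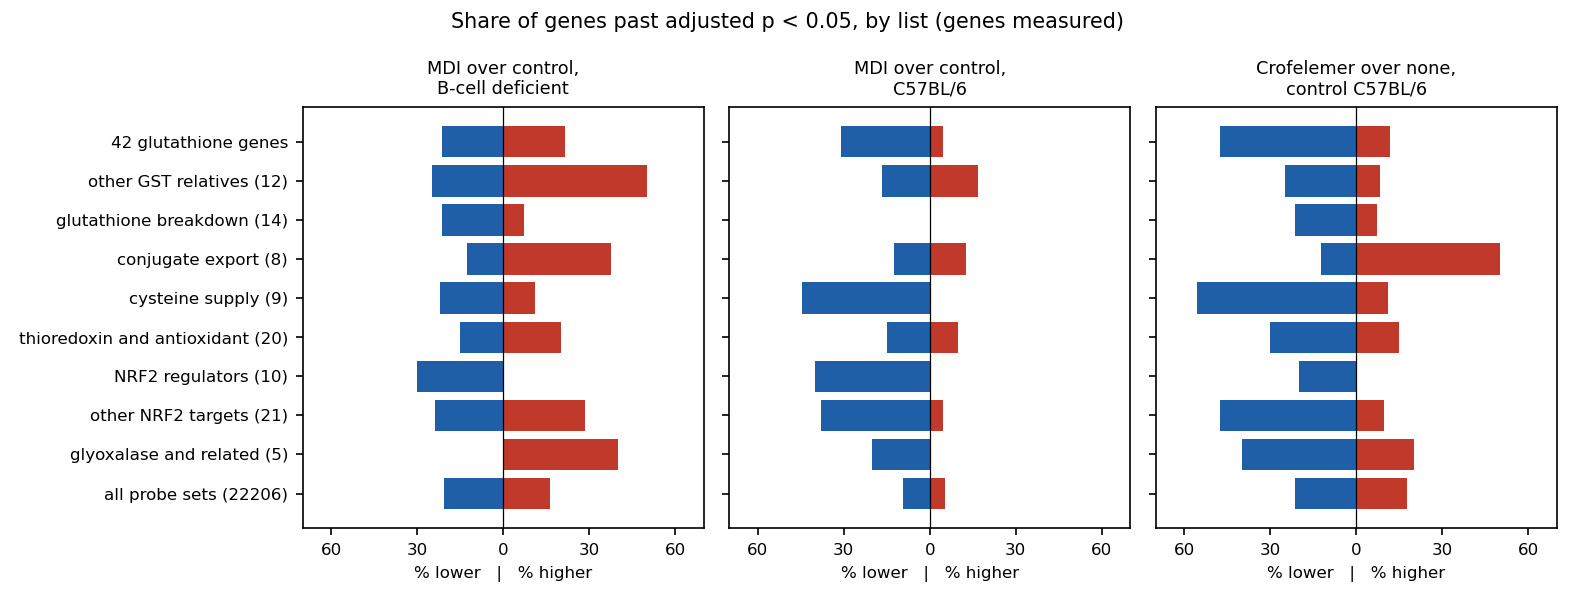
Percentage of genes lower (blue, left) and higher (red, right) at adjusted p under 0.05 in the 42 glutathione genes, in the 8 lists of other pathway genes (number measured in brackets) and in all 22206 probe sets, for MDI over control in B-cell deficient and C57BL/6 mice and for crofelemer over none in control mice. In C57BL/6 mice given MDI 31.0% of the 42 genes were lower, beside 9.23% of all probe sets.

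Markers of other cells moved in the same comparisons. Over all probe sets, 16.2% rose and 20.7% fell with MDI in B-cell deficient mice, and 5.3% and 9.23% in C57BL/6 mice. With MDI, 8 of 8 eosinophil markers rose in B-cell deficient mice (summed log2 77.2 to 87.4 on MDI arrays, 54.8 to 63.4 on controls) and 6 of 8 in C57BL/6 mice (62.3 to 79.0, and 50.4 to 58.2 on controls). Goblet cell markers rose for 8 of 9 in B-cell deficient and 9 of 9 in C57BL/6 mice. Interstitial macrophage and monocyte markers rose for 7 of 9 (summed log2 100.3 to 105.0 with MDI, 83.6 to 93.4 in controls) and for 5 of 9 with 1 fall (94.5 to 104.8, and 89.7 to 98.1 in controls). Alveolar macrophage markers rose for 7 of 9 in B-cell deficient and 3 of 9 in C57BL/6 mice, and T cell markers for 6 of 7 and 4 of 7. Alveolar type 1 markers fell for 4 of 8 in B-cell deficient and 5 of 8 in C57BL/6 mice, and of 7 neutrophil markers 2 rose in B-cell deficient mice, against 1 rise and 3 falls in C57BL/6 mice. Of 9 club cell markers 4 rose and 2 fell in B-cell deficient mice (summed log2 119.8 to 127.8 with MDI, 119.1 to 128.9 in controls), and 2 rose and 2 fell in C57BL/6 mice (114.9 to 126.3, and 117.2 to 128.1 in controls). The 2 that fell were Cyp2f2 (−1.30 and −0.77) and Scgb3a2 (−1.07 and −0.81), while Scgb1a1 did not pass (−0.02 and −0.03). Endothelial markers fell for 4 of 9 with 1 rise, and for 7 of 9. Their part in the changes of the glutathione genes was not tested.

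With crofelemer in control mice, 8 of 9 club cell markers fell and 1 rose (summed log2 107.8 to 113.2 with crofelemer, 117.2 to 128.1 without), beside falls of 7 of 8 ciliated cell (52.5 to 57.7, and 65.4 to 70.6 without), 9 of 9 endothelial (118.2 to 124.6, and 128.4 to 132.8 without) and 6 of 6 B cell markers (36.4 to 37.8, and 44.8 to 51.3 without). Also in control mice, 5 of 7 neutrophil markers fell (median −2.12), while 4 of 9 interstitial macrophage and monocyte markers rose and 2 fell. Over all probe sets 21.4% fell and 17.6% rose in this comparison. In MDI-exposed mice 5 of 9 club cell (1 rose), 6 of 8 ciliated cell, 7 of 9 endothelial and 6 of 6 B cell markers fell. So did 6 of 8 eosinophil, 6 of 9 goblet cell, 5 of 9 alveolar macrophage (1 rose) and 4 of 7 T cell markers. In MDI-exposed mice 17.5% of all probe sets fell and 15% rose with crofelemer. Fibroblast markers rose for 3 of 7 and fell for 1 in control and MDI-exposed mice alike. Of 9 alveolar type 2 markers 4 rose and 3 fell in MDI-exposed mice. The lowest value on this scale was 1.86, so the absence of a cell type could not be read as a signal of 0. The part of these shifts in the falls of Gsta2, Gsta3, Gsta4 and Gstk1 was not tested.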

How the data were processed

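Total RNA from mouse lung (250 ng) was labelled with biotin and hybridised to 51 1-colour arrays, per the labels' protocols. The authors deposited log2 signals with 2 decimals for 22206 probe sets; the log base is inferred from the range (1.86 to 20.91). Per the submitters' processing notes, Transcriptome Analysis Console was used; its version, normalization and build: not given in the sources used here. No value was rescaled. Of 51 arrays 49 entered 8 groups, and 2 with contradictory labels were left out. The array titled C57BL/6 MDI Exposed 14 carries a source label of control products but an exposure label of MDI, and counted as MDI. Of the crofelemer controls, 4 name crofelemer alone in their exposure label and control products in their source label, and replicate 5 lacks crofelemer in its source label but has it in its treatment label.

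Gene names came from the platform annotation: 19572 probe sets had 1 symbol, 2634 had none, and all 19572 symbols equalled RefSeq's by Entrez ID. Each of the 42 members had 1 probe set. The members and lists were chosen with earlier results of these data known. Values by array are given for 18 members, those changed in at least 2 of the 4 MDI comparisons and up to 6 with the largest change in each comparison.

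All 8 groups entered 1 fit of group means, with 41 residual degrees of freedom, in limma 3.58.1 in R 4.3.3, with an intensity trend, 2-sided tests and Benjamini-Hochberg adjustment over all probe sets, in 9 comparisons that share groups. Arrays give no counts, so their number limits precision: on simulated data, the share of 2-fold changes found was 65% in the BALB/c test of MDI, 99% in C57BL/6, 84% with crofelemer and 95% in B-cell deficient mice, 91% and 93% for crofelemer in MDI-exposed and control mice, and 57%, 80% and 53% for the differences by crofelemer, B-cell deficiency and BALB/c strain. The simulation drew independent noise at the pooled SD of each probe set. It changed fewer probe sets than passed in the larger comparisons here, so these shares are a rough guide only. Same-numbered arrays were checked for shared deviations from their group means. For crofelemer in MDI-exposed mice all 3 correlations passed 0.1 (0.167, 0.166 and 0.105), so the block result is given beside that comparison. These correlations are weak and were not set against those of differently numbered arrays, and the labels name no pairs. In the other comparisons not every correlation passed 0.1. Alternatives were quantile normalization, centring, a fit of the 13537 probe sets with a mean log2 of at least 6, array weights, fits of the compared groups alone, a lot term, fits within a lot, a replicate block, no trend, and each array left out in turn. Promoters are RefSeq's (GRCm38.p6), found for 36 of 42 members. Tables and figures used Python 3.11.15 and matplotlib 3.10.9.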

Additional observations from a re-analysis of the deposited data

Results flagged for a closer look

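On 3 occasions an array stood apart from its group by Dixon's criterion at the 95% level, of 72 groups tested, and chance gives about 1 in 20. Gsta4 read 13.11 on B-cell deficient control replicate 7, with the nearest array at 12.68. Gsta4 and Gstk1 read 10.08 and 9.97 on control replicate 1 with crofelemer, with the nearest arrays at 10.32 and 10.91.

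The change with MDI differed between groups for 8 genes in limma. With crofelemer minus without, Gsta2 differed by 1.82, at a dim signal in the crofelemer controls. In B-cell deficient minus C57BL/6 mice, Gsr differed by 1.25, Gstt2 by 1.15, Gstp2 by 0.93, Gstp1 by 0.82, Gstp3 by 0.80, Gpx1 by 0.52 and Gpx6 by −0.83. Both Gstp1 and Gstp2 fell in C57BL/6 mice and did not pass in B-cell deficient mice.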

How the results depend on the processing

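Each called gene was refitted under the alternatives that apply to it, except that Gpx5 and Gpx6 have no value where dim probe sets were left out. Of 2193 such values 2013 stayed past the threshold in the same direction, 180 did not pass and none changed direction. Genes that passed only under an alternative are not among these values, and some of them are named above. The number of genes changed by MDI in BALB/c mice was 1, against 0 after quantile normalization and 0 without any 1 array. In C57BL/6 mice it was 15, against 7 within lot 1, and 12 to 16 with 1 array left out. For the MDI change with crofelemer minus without it was 1, against 0 with array weights, 0 in a fit of these groups alone, 0 within lot 1, and 0 to 2 with 1 array left out. For B-cell deficient minus C57BL/6 mice it was 7, against 2 without the 4 narrow controls, an alternative chosen after seeing the data, and 6 to 8 with 1 array left out. The range over arrays left out was 14 to 18 for MDI in B-cell deficient mice, 12 to 20 for crofelemer in MDI-exposed mice, 23 to 26 for crofelemer in control mice, and 0 for MDI with crofelemer and for BALB/c minus C57BL/6. The other counts stayed within 1.5 times. The cause of these shifts was not tested, beyond the fewer arrays of some fits.

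With the replicate number as a block, over the numbers that the groups share, the count of genes changed by MDI was 2 in BALB/c and 6 in C57BL/6 mice, and it was 8 for crofelemer in MDI-exposed mice and 0 for the MDI change with crofelemer minus without; these fits use fewer arrays. In C57BL/6 mice same-numbered MDI and control arrays correlated from −0.222 to 0.184 and were not taken as pairs. The block changed no other count by over 1.5 times.

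MDI in BALB/c mice has no within-lot fit of its own, since all 6 arrays lie in lot 1, and no member had a second probe set. With 3 BALB/c arrays a group, simulated 2-fold changes were found at 65%.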

Other observations

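The labels of 2 arrays contradict each other on treatment, and both are given as values only. The array titled C57BL/6 MDI Exposed + Crofelemer 4 is described elsewhere in its labels as untreated with crofelemer, and read 11.47 for Gsta3, 5.55 for Gsta2, 10.93 for Gsta4, 11.32 for Gstk1, 15.29 for Gstm1, 11.33 for Hmox1 and 14.16 for Gclc. The array titled C57BL/6 MDI Exposed 13 is labelled as treated with crofelemer, and read 12.40 for Gsta3, 7.08 for Gsta2, 11.56 for Gsta4, 11.60 for Gstk1, 15.56 for Gstm1, 12.56 for Hmox1 and 14.23 for Gclc.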
